A study of Mus musculus with 30 samples.

Results

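Mouse embryonic stem (ES) cells labelled Jmj (-/-), called null here, were compared at day 4 of LIF withdrawal with control cells labelled Jmj (fl/fl), called Fl/Fl, at day 2, the preceding day of the control course. The comparison took 5 null day 4 arrays and 2 Fl/Fl day 2 arrays out of 30 arrays in the series, chosen by genotype and day alone. The whole series holds null and Fl/Fl cells at days 0, 2, 4, 6 and 8, with every group kept without LIF for the days named. Jmj is an older name of Jarid2. The labels call the arrays of a group biological replicates. They do not say whether the arrays came from separate cultures or clones, so the p-values cover only the scatter among these arrays, and part of it may be technical. How the deletion was made, how many null lines were used and whether feeder cells were present is not stated in the labels. The 2 groups differ in genotype and in 2 days of LIF withdrawal at once, and these cannot be told apart in a difference between them. Affymetrix arrays gave 1 linear intensity per probe set, and 18194 genes were tested, each through its brightest probe set. In bulk RNA, fewer cells of a type and less RNA per cell cannot be told apart.

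LIF holds mouse ES cells in the naive pluripotent state through STAT3. When it is withdrawn, naive factors such as Esrrb, Tfcp2l1 and Zfp42 are shut off, genes of the primed epiblast such as Otx2, Fgf5 and Pou3f1 come on, and genes of primitive streak, endoderm and neural lineages follow. Jarid2 is a partner of Polycomb repressive complex 2, which places the repressive methyl marks on histone H3 lysine 27 at developmental genes. A difference that remains against the preceding control day is one between null cells and an earlier control stage. A difference against all control days around it lies off the measured control course.

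Jarid2 itself did not check the labels. Its brightest probe set read 1470, 1383, 1257, 1317 and 1275 in null day 4 replicates 1 to 5, against 1467 and 1789 in the Fl/Fl day 2 arrays. The difference was log2 −0.28 (95% interval −0.77 to 0.22, adjusted p = 0.768). Its other probe sets also missed the threshold, with −0.41 and −0.11. The labels do not say whether the deletion removes the sequence these probe sets detect. Against Fl/Fl day 4, at 709 and 710, Jarid2 was higher in null day 4 (log2 0.91, adjusted p = 0.0149).

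By correlation the null day 4 arrays were of 2 kinds, though replicates 1 and 2 also differed from each other in Eif2s3y. Across genes, replicates 3 to 5 correlated with each other at 0.995 to 0.9963 and replicates 1 and 2 at 0.9939, while pairs across the kinds reached 0.9827 to 0.9856. Eif2s3y, on the Y chromosome, read 690, 850 and 783 in replicates 3 to 5 but 218 and 12 in replicates 1 and 2, against 193 and 157 in the Fl/Fl day 2 arrays. Tmem87a read 260, 201 and 348 in replicates 3 to 5 and 12 in each of replicates 1 and 2, against 10 and 11 in Fl/Fl. The ratio of 3' to 5' actin control signal, a sign of RNA integrity, was 1.35, 1.296 and 1.385 in replicates 3 to 5 and 1.625 and 1.621 in replicates 1 and 2, against 1.78 and 1.577. The part of these differences in the results was not tested; counts with each kind alone stand beside the total below.

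Null day 4 cells were nearer to Fl/Fl day 2 than to any other Fl/Fl day by the count of genes called. Against Fl/Fl day 2, 313 genes passed an adjusted p of 0.05 in limma's moderated test, 63 higher and 250 lower in null day 4, which is 1.72% of the genes tested (0.346% higher and 1.37% lower). Of these, 99 differed at least 2-fold, 26 higher and 73 lower. The corresponding counts were 2896 genes (15.9%, with 4.43% higher and 11.5% lower) against Fl/Fl day 0, 2112 (11.6%, with 4.18% higher and 7.43% lower) against day 4, 4719 (25.9%, with 11.2% higher and 14.7% lower) against day 6 and 6008 (33%, with 15.2% higher and 17.9% lower) against day 8. These comparisons share the null day 4 arrays. Over the genes left without the 40% dimmest, the median size of the difference was log2 0.20 against day 2, and 0.30 against each of days 0 and 4. Most of the 313 genes lost the call whichever Fl/Fl day 2 array was left out. The count against day 2 rested on few control arrays. It was 139 genes without Fl/Fl day 2 replicate 1 and 203 without null day 4 replicate 2, and it was 195 (70 higher, 125 lower) with each array centred on the median of its brighter genes. With the null arrays above an Eif2s3y level of 500 alone (replicates 3 to 5 at day 4) 1995 genes passed, and with the other null arrays alone (replicates 1 and 2) 532 passed; the labels name no such groups, and the split was made once the levels had been seen. With only the 7 arrays compared in the fit 259 genes passed, of which 99 were among the 313.

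**Figure D1:**
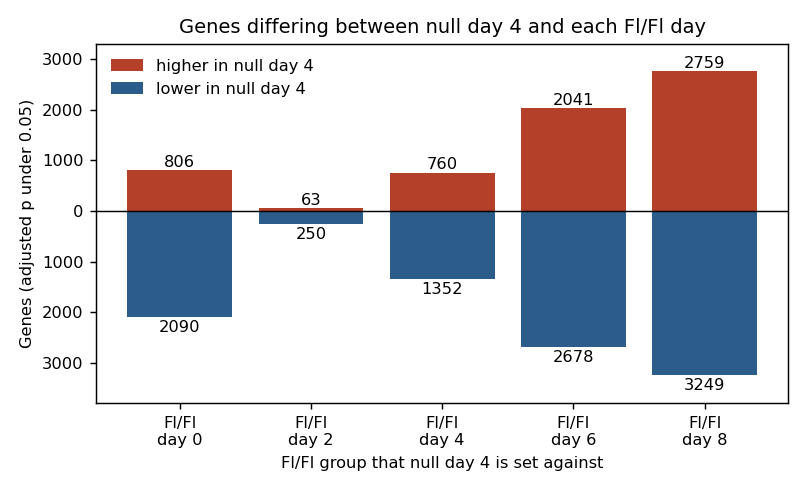
Number of genes with an adjusted p under 0.05 between null day 4 (n = 5) and each Fl/Fl day (n = 2 each), with genes higher in null day 4 above the axis and genes lower in it below. The bars are shortest at Fl/Fl day 2, with 63 genes higher and 250 lower.

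Promoter sequences are shown for Slc39a8, the gene with the largest rise, and for Ifitm1 and Gtsf1l, which kept their falls under every setting tried, a choice made after their values were seen. They run from 250 bases before to 50 after an annotated start, 5′ to 3′ on the gene's strand, and are RefSeq sequences of GRCm38.p6. Capitals mark CpG dinucleotides. Slc39a8 has an upstream start (chr3:135825029-135825328, + strand, 12 CpG) and a downstream one (chr3:135825407-135825706, + strand, 9 CpG). Ifitm1 is at chr7:140967826-140968125 (+ strand, 5 CpG) and Gtsf1l at chr2:163089552-163089851 (− strand, 2 CpG).
Slc39a8, upstream start: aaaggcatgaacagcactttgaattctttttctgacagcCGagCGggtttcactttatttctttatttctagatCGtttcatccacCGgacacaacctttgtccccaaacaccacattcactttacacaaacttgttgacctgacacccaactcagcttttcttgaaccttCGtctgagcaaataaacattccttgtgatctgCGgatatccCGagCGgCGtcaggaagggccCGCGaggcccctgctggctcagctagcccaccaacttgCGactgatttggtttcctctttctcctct
Slc39a8, downstream start: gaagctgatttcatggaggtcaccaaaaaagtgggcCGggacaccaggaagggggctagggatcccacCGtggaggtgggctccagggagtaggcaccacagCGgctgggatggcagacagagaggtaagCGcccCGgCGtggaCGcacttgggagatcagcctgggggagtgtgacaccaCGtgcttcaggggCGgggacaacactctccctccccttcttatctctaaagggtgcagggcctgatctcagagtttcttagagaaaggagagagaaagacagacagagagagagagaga
Ifitm1: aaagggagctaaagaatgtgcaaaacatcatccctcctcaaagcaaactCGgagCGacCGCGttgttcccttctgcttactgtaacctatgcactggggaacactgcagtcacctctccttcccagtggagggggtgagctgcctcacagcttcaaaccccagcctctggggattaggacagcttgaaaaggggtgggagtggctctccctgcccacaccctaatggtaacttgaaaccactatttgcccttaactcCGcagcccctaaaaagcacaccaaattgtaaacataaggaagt
Gtsf1l: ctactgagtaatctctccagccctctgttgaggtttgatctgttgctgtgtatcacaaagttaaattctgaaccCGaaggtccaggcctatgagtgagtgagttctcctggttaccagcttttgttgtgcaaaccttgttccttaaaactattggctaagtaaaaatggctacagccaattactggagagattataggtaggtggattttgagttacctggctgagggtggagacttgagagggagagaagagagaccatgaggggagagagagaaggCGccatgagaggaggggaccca

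No match to AAGGTCA (the nuclear receptor site of Esrrb), GCCNNNGGC (TFAP2), TTCCNGGAA (STAT3) or ATGCAAAT (octamer) was found in these 4 windows on either strand. CACGTG (E-box) occurred 1 time, at the downstream start of Slc39a8. Motifs were searched separately, on both strands. Over all promoters of the genes called lower, 2.85% held AAGGTCA, 23.6% GCCNNNGGC and 1.22% TTCCNGGAA, against 3.92%, 22.1% and 1.19% over all genes tested. Over those called higher the shares were 3.23%, 17.7% and 1.61%. CACGTG was held by 4.84% of promoters of genes called higher and 9.76% of those called lower, against 8.72% over all genes tested. For ATGCAAAT the shares were 0%, 2.03% and 1.39%. A promoter was found for 47 of 63 genes called higher, 180 of 250 called lower and 14453 of 18194 tested. The median CpG number per promoter was 14.5 for genes called higher and 11 for genes called lower, against 16 for all genes tested.

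Among the 15 largest falls were Esrrb and Gtsf1l, which stood at their Fl/Fl day 4 level, and Greb1l, Tfpi and Tfap2c, which were lower than it in every array. Esrrb, an orphan nuclear receptor of the naive network, read 12, 8, 12, 13 and 15 in the null day 4 arrays, against 211 and 276 in the Fl/Fl day 2 arrays. All 5 null arrays lay below both Fl/Fl arrays, by 15.5-fold on the mean (log2 −3.95, SE 0.329, adjusted p = 4.02e-07). At day 4 the Fl/Fl arrays read 12 and 25, and null day 4 did not differ from them beyond the threshold (log2 −0.44, adjusted p = 0.516). The other 2 Esrrb probe sets did not pass, with means of 40 in null day 4 and 42.5 in Fl/Fl day 2 (log2 −0.10) for the brighter and 7.2 and 10 for the dimmer.

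Dppa3, a maternal and germline factor that limits DNA methylation, read 44, 9, 74, 58 and 62 in null day 4, against 853 and 915 in Fl/Fl day 2 (19.4-fold lower, log2 −4.28, SE 0.458, adjusted p = 1.47e-05). Every null array was below both Fl/Fl day 4 arrays too, at 75 and 95, but that difference did not pass (adjusted p = 0.223). Fbxo15, an F-box gene of undifferentiated ES cells, read 23, 15, 82, 83 and 79 in null day 4, against 389 and 377 (log2 −2.95, adjusted p = 0.00241). Replicates 1 and 2 were the lowest of the 5. Nr0b1, a repressor expressed with the naive network, had null day 4 values of 8, 6, 12, 11 and 17, against 53 and 41 in Fl/Fl day 2 (log2 −1.82, adjusted p = 0.00533). Zfp42, a zinc finger marker of naive cells, had 58, 51, 142, 142 and 156 in null day 4, against 305 and 279 (log2 −1.52, adjusted p = 0.025). It was lower than Fl/Fl day 2 in both kinds of null array. Against Fl/Fl day 4, Fbxo15, Nr0b1 and Zfp42 did not pass (log2 −0.52, 0.39 and 0.91). The calls of Nr0b1 and Zfp42 ended without Fl/Fl day 2 replicate 1, and that of Zfp42 also without replicate 2 (adjusted p between 0.0547 and 0.374 over all named calls lost that way). With only the 7 arrays compared in the fit, the calls of Dppa3, Fbxo15, Nr0b1 and Zfp42 ended, with adjusted p of 0.0751 to 0.324, and that of Esrrb held.

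Genes known from the germline were among the falls too. Gtsf1l, a relative of a piRNA pathway gene, read 11, 12, 12, 8 and 12 in null day 4, against 149 and 145 in Fl/Fl day 2 (10.1-fold lower, log2 −3.34, SE 0.297, adjusted p = 1.03e-06). Its Fl/Fl day 4 arrays were at 11 and 11, inside the range of the null arrays. The homeobox genes Rhox5, Rhox6 and Rhox9 of the X-linked reproductive cluster were all lower. Rhox6 read 9, 10, 10, 13 and 9 in null day 4, against 113 and 146 (log2 −3.23, adjusted p = 0.00189). Rhox5 read 517, 90, 549, 583 and 513 in null day 4, against 2578 and 2650 (log2 −2.77, adjusted p = 0.0172). Replicate 2 stood apart in Rhox5, yet the other arrays were also far below Fl/Fl day 2. Rhox9 changed by log2 −2.24 (adjusted p = 0.00706). Of Ooep, Morc1 and Mageb16, known from oocyte, spermatogenesis and testis, Ooep changed by log2 −3.20 (adjusted p = 0.00026), Morc1 by −2.64 (adjusted p = 0.00531) and Mageb16 by −3.64 (adjusted p = 0.0152). The noncoding RNA Lncenc1, known from naive ES cells, changed by −3.09 (adjusted p = 0.00137) and Manba, a lysosomal mannosidase gene, by −2.56 (adjusted p = 0.0283). In Ooep and Morc1 replicates 3 to 5 were higher than replicates 1 and 2, at 30, 21 and 46 against 9 and 7 for Ooep. The calls of Rhox5, Mageb16 and Manba ended without either Fl/Fl day 2 array, that of Rhox9 without replicate 2 and that of Morc1 without replicate 1. The calls of Rhox5, Ooep, Morc1, Mageb16 and Lncenc1 ended when the fit held only the 7 arrays compared, with adjusted p of 0.11 to 0.23. Eprn, a noncoding RNA gene of the same 15, changed by −2.83 (adjusted p = 0.0263), and its call ended in that fit and without either Fl/Fl day 2 array. Against Fl/Fl day 4 no gene of this paragraph passed. Null day 4 was on the higher side of that day for Rhox5, Ooep, Morc1, Lncenc1 and Eprn (log2 0.52 to 0.93). It was on the lower side for Rhox6, Rhox9, Mageb16 and Manba (log2 −1.74 to −0.34).

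**Figure D2:**
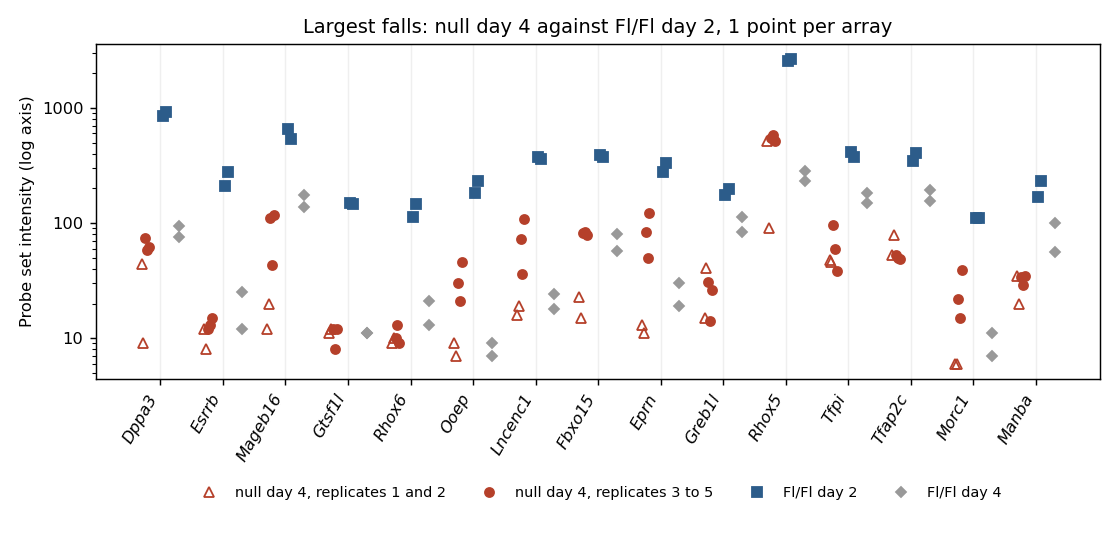
Intensity on a log axis of the 15 genes with the largest falls, 1 point per array, for null day 4 (n = 5, replicates 1 and 2 with open symbols), Fl/Fl day 2 (n = 2) and Fl/Fl day 4 (n = 2). All null points lie below both Fl/Fl day 2 points, as the naming rule required, and in many genes they lie at the Fl/Fl day 4 level.

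Some of the genes called against Fl/Fl day 2 had all null arrays outside the early Fl/Fl arrays. Of the 63 genes higher than Fl/Fl day 2, 16 had all 5 null day 4 arrays above all 6 Fl/Fl arrays of days 0, 2 and 4, and of the 250 lower genes 37 had all 5 below them. Among all genes tested, called or not, 0.649% lay above these 6 arrays and 1.52% below. Genes called against Fl/Fl day 2 mostly lay beyond its arrays already. Of all genes above both Fl/Fl day 2 arrays, called or not, 118 of 699 lay above the 6 arrays. Of all genes below both, 277 of 1982 lay below the 6 arrays, so called lower genes lay there about as often as genes below both in general. With all 10 Fl/Fl arrays as the bound, 12 of the 16 and 24 of the 37 remained outside, where 0.478% of all genes lay above and 1.14% below (1.62% in all). Called or not, 87 of the 118 and 207 of the 277 remained outside, which is about as often for the higher genes and more often for the lower ones. The stricter test, in which null day 4 had to differ in the same direction from each of Fl/Fl days 0, 2 and 4, called 2 genes (0.011% of those tested) in limma's fit, Spon1 higher and Ifitm1 lower (0.0055% each), while 273 genes had an unadjusted p under 0.05. It called 0 genes without either Fl/Fl day 2 array, 1 gene (Spon1) without null day 4 replicate 1 or either Fl/Fl day 4 array, and 22 to 368 with 1 kind of null array alone. With only the 11 arrays compared in the fit it called 3 genes, all lower, and neither Spon1 (adjusted p = 0.117) nor Ifitm1 (adjusted p = 0.0518) was among them.

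Ifitm1, an interferon-induced membrane protein also expressed in early germ cells, was the gene below the control course in that test. It read 549, 628, 874, 935 and 846 in null day 4, against 3985 and 4161 in Fl/Fl day 2. The day 0 arrays of Fl/Fl read 6482 and 7007 and the day 4 arrays 3099 and 3420, so every null array was below all of them. The differences were log2 −2.43 against day 2 (SE 0.328, adjusted p = 0.000291, 5.40-fold lower), −2.11 against day 4 (adjusted p = 0.000193) and −3.16 against day 0 (adjusted p = 9.14e-07). Over the 3 tests together the adjusted p was 0.0222. That call of Ifitm1 was also lost with the replicate block (adjusted p = 0.152), with null day 4 replicates 1 and 2 alone (0.0704), without null day 4 replicate 1 (0.0743) or 2 (0.0524), without either array of Fl/Fl day 2 (0.237 to 0.347) or day 4 (0.705 to 0.722), and over all 5 Fl/Fl days (1). In the null course Ifitm1 was 7230 ± 1820 at day 0 (SD, n = 3), 2608 ± 510.2 at day 2, 766.4 ± 167.9 at day 4 and 3566 ± 1120 at day 6 (n = 5 each). Null cells thus read lower at day 4 than on the days to either side, while the Fl/Fl means ran 6744 ± 371.2, 4073 ± 124.5, 3260 ± 227.0, 3052 ± 189.5 and 1376 ± 434.2 over days 0 to 8 (n = 2 each).

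Tfap2c, a transcription factor of trophoblast and germ cells, read 53, 78, 53, 50 and 49 in null day 4, against 348 and 403 in Fl/Fl day 2 (6.33-fold lower, log2 −2.66, SE 0.323, adjusted p = 0.000107). It was also lower than Fl/Fl day 4, at 156 and 194 (log2 −1.57, adjusted p = 0.00248). Tfpi, an inhibitor of the tissue factor clotting pathway, read 48, 46, 96, 60 and 38 in null day 4, against 415 and 372 (log2 −2.76, adjusted p = 0.000767). The difference of Tfpi from Fl/Fl day 4, at 150 and 184, passed as well (log2 −1.53, adjusted p = 0.0159). Slc25a12, a mitochondrial aspartate and glutamate carrier picked after its values were seen, read 16, 21, 14, 20 and 13 in null day 4, against 101 and 105 (log2 −2.38, adjusted p = 0.000654). Its Fl/Fl day 4 arrays read 31 and 43, above every null array, and that difference did not pass (adjusted p = 0.0725). Along with Dppa3 and Ifitm1, these 3 were the genes of the 37 whose call against Fl/Fl day 2 held when each of the 7 arrays was left out in turn; the other 32 lost it at least 1 time.

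Bmp4, Lefty1 and Lefty2 also had all 5 null arrays below the early Fl/Fl arrays. Bmp4, a ligand that drives mesoderm and germ cell formation, read 10, 17, 34, 9 and 9 in null day 4, against 73 and 110 in Fl/Fl day 2 (log2 −2.38, SE 0.578, adjusted p = 0.037). Fl/Fl cells had 429 and 476 at day 0 and 250 and 347 at day 4, and null day 4 was lower than Fl/Fl day 4 (log2 −4.05, adjusted p = 7.45e-05). The null arrays at day 4 therefore lay below the lowest point of Bmp4 in the Fl/Fl course. Lefty1 and Lefty2, secreted inhibitors of Nodal, were lower by log2 −1.64 (adjusted p = 0.0377) and −1.62 (adjusted p = 0.0494). Lefty1 did not pass against Fl/Fl day 4 (log2 −0.65, adjusted p = 0.39). Lefty2 read 197, 259, 146, 223 and 148 in null day 4, against 536 and 650, and 663 and 866 at Fl/Fl day 4 (log2 −1.97, adjusted p = 0.00301). The Bmp4 and Lefty1 calls against day 2 each ended in 6 of the 7 fits that left out an array and the Lefty2 call in all 7, with adjusted p up to 0.236, and all 3 calls ended without either Fl/Fl day 2 array. The Bmp4 and Lefty2 calls also ended with only the 7 arrays in the fit (adjusted p = 0.111 and 0.0642).

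Tfcp2l1, a naive factor directly downstream of LIF, read 14, 29, 29, 9 and 8 in null day 4, against 88 and 99 in Fl/Fl day 2 (log2 −2.30, adjusted p = 0.00874) and 75 and 83 in Fl/Fl day 4 (log2 −2.06, adjusted p = 0.00318). Unlike Esrrb, it had not fallen to the null level in Fl/Fl cells by day 4. Cdkn1c, an imprinted inhibitor of the cell cycle, read 108, 86, 428, 319 and 363 in null day 4, against 773 and 802 in Fl/Fl day 2 (log2 −1.85, adjusted p = 0.042). Replicates 1 and 2 were the lowest, and all 5 were below the 546 to 576 of Fl/Fl day 4, a difference that did not pass (adjusted p = 0.0602). Pcgf5, a subunit of a variant Polycomb repressive complex 1, read 155, 120, 131, 123 and 129 in null day 4, against 223 and 269 (log2 −0.88, adjusted p = 0.0349), and 270 and 301 in Fl/Fl day 4. Greb1l, a gene needed for kidney formation, read 15, 41, 31, 14 and 26 in null day 4, against 176 and 198 (log2 −2.79, adjusted p = 0.0203). The calls of these 4 genes ended without either Fl/Fl day 2 array, and those of Tfcp2l1, Cdkn1c and Greb1l with only the 7 arrays in the fit (adjusted p = 0.127, 0.396 and 0.0509). With the arrays centred or quantile normalized, the Cdkn1c and Pcgf5 calls were also lost. The other probe sets of Pcgf5 did not pass (log2 −0.39 and −0.055), and its call was lost with the mean of its probe sets.

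Other genes below the course, picked after their values were seen, were Nrk, Zc3hav1l, Sgk1 and Trip12. Nrk, a kinase known from placenta, read 31, 73, 61, 27 and 34 in null day 4, against 172 and 235 in Fl/Fl day 2 and 399 and 413 in Fl/Fl day 4 (log2 −2.16, adjusted p = 0.0283, and −3.16, adjusted p = 0.000215). Zc3hav1l read 70, 100, 54, 99 and 75 in null day 4, against 234 and 277 in Fl/Fl day 2 and 276 and 322 in Fl/Fl day 4 (log2 −1.66, adjusted p = 0.0139, and −1.89, adjusted p = 0.00066). Both genes were flat or higher at day 4 of the Fl/Fl course. Trip12, a ubiquitin ligase, changed by −0.69 (adjusted p = 0.00758), and Sgk1, a serum-regulated kinase, by −0.99 (adjusted p = 0.037). The calls of Nrk, Zc3hav1l, Sgk1 and Trip12 against day 2 all ended without either Fl/Fl day 2 array, with adjusted p up to 0.273. Those of Nrk, Zc3hav1l and Sgk1 ended with only the 7 arrays in the fit too (adjusted p = 0.103, 0.0602 and 0.0832).

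The largest rise, and the only called one above 5-fold among the named genes, was that of Slc39a8, which encodes the zinc and manganese importer ZIP8. It read 806, 1046, 691, 590 and 718 in null day 4, against 15 and 17 in Fl/Fl day 2 (38.05-fold higher, log2 5.25, SE 0.516, adjusted p = 4.36e-06). Fl/Fl cells read 131 and 208 at day 4, so null day 4 exceeded that day too (log2 2.17, adjusted p = 0.00777). A second probe set also rose, with means of 49.4 in null day 4 and 5 in Fl/Fl day 2 (log2 2.54, adjusted p = 2.07e-05 among probe sets). In null cells the mean was 92.3 ± 74.1 at day 0 (n = 3), 159.4 ± 93.6 at day 2, 770.2 ± 172.3 at day 4 and 766.6 ± 135.9 at day 6 (n = 5 each). The Fl/Fl means over days 0 to 8 stayed between 11 ± 2.83 and 212 ± 91.9 (n = 2 each). In the test against all 3 early Fl/Fl days together Slc39a8 did not pass (adjusted p = 0.462), although all 5 null arrays were above all 10 Fl/Fl arrays.

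Spon1, a secreted matrix protein that guides axons, was the gene above the control course in that test (adjusted p = 0.00343 over the 3 tests, 0.0721 and 0.361 without a Fl/Fl day 2 array). It read 317, 176, 178, 214 and 168 in null day 4, against 40 and 53 in Fl/Fl day 2 (4.16-fold higher, log2 2.06, SE 0.269, adjusted p = 0.000229). The Fl/Fl arrays stood at 11 and 13 at day 0 and at 10 and 11 at day 4 (log2 3.85, adjusted p = 1.61e-08 against day 4). Spon1 was thus at its highest Fl/Fl level on day 2, and every null day 4 array was still above it. In null cells its mean was 24.3 ± 10.02 at day 0 (n = 3), 181.4 ± 37.6 at day 2, 210.6 ± 62.1 at day 4 and 13.6 ± 4.93 at day 6 (n = 5 each). The other 3 Spon1 probe sets had means between 5 and 16.5 in both groups and did not pass. With the mean of all its probe sets Spon1 missed the test over the 3 days (adjusted p = 0.0595). Spon1 and Slc39a8 were the 2 of the 16 genes above the early course whose call against day 2 held when each of the 7 arrays was left out in turn; the other 14 lost it at least 1 time.

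Penk, which encodes the opioid peptide precursor proenkephalin, read 142, 85, 98, 98 and 108 in null day 4, against 20 and 31 in Fl/Fl day 2 (log2 1.91, SE 0.367, adjusted p = 0.00943). It stayed between 8 and 20 in the Fl/Fl arrays of days 0 and 4, and the null means at days 2 and 6 were both 28.4. Klhl4, an X-linked kelch gene, read 91, 137, 46, 33 and 66 in null day 4, against 12 and 11 (log2 2.19, adjusted p = 0.0283). Ramp3, a partner of calcitonin-family receptors, read 28, 24, 65, 70 and 109 in null day 4, against 9 and 13 (log2 1.90, adjusted p = 0.0442). The 2 kinds of null array ran in opposite order in the last pair of genes, with replicates 1 and 2 higher for Klhl4 and lower for Ramp3. Mgst1, a microsomal glutathione transferase, read 189, 212, 101, 66 and 70 in null day 4, against 14 and 28 (log2 2.30, adjusted p = 0.0191). Among genes above the course picked after their values were seen, the glutathione peroxidase family members Gpx7 and Gpx3 rose by log2 1.13 and 0.79 (adjusted p = 0.027 and 0.0191). Tyro3, a receptor kinase, read 390, 407, 306, 260 and 350 in null day 4, against 166 and 225 (log2 0.79, adjusted p = 0.0172), and Kcnj3, a potassium channel, rose by 1.17 (adjusted p = 0.0327). Every one of these 8 calls ended without Fl/Fl day 2 replicate 1, and those of Klhl4, Ramp3, Gpx7 and Gpx3 also without replicate 2. With only the 7 arrays in the fit the calls of Klhl4, Ramp3, Mgst1, Gpx7, Tyro3 and Kcnj3 ended, with adjusted p of 0.0635 to 0.279. The other probe sets of Klhl4 and Mgst1 were near the floor and did not pass.

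**Figure D3:**
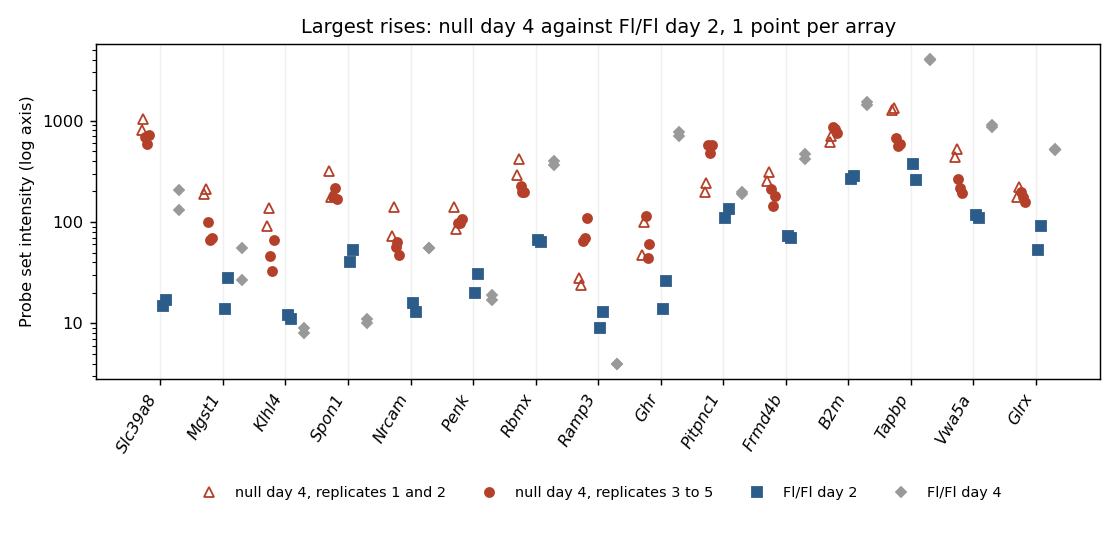
Intensity on a log axis of the 15 genes with the largest rises, 1 point per array, for null day 4 (n = 5, replicates 1 and 2 with open symbols), Fl/Fl day 2 (n = 2) and Fl/Fl day 4 (n = 2). Slc39a8, Spon1, Penk and Klhl4 lie above both Fl/Fl days, while B2m, Tapbp and Ghr lie between them.

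Several other rises stood between the levels of Fl/Fl days 2 and 4, among them genes of MHC class I. B2m, the light chain of MHC class I, read 611, 706, 865, 834 and 754 in null day 4, against 263 and 285 in Fl/Fl day 2 (2.71-fold higher, log2 1.44, SE 0.191, adjusted p = 0.00026). Fl/Fl day 4 read 1428 and 1539, above every null array (log2 −0.98, adjusted p = 0.00149). Tapbp, which loads peptides onto MHC class I, read 1280, 1329, 668, 562 and 594 in null day 4, against 372 and 259 (log2 1.40, adjusted p = 0.0198), and 3925 and 4030 in Fl/Fl day 4. Both genes were higher than the earlier control day and lower than the same one, in all 5 arrays. Ghr, the growth hormone receptor, read 47, 99, 115, 44 and 60 in null day 4, against 14 and 26 (log2 1.63, adjusted p = 0.00225), and 709 and 769 in Fl/Fl day 4. S100a10, the partner of annexin A2, read 4959, 5735, 5110, 4314 and 3877 in null day 4, against 2894 and 2690 (log2 0.77, adjusted p = 0.00668), and 18120 and 18214 in Fl/Fl day 4. Glrx, Vwa5a and Frmd4b took the same position, with rises of 1.35, 1.38 and 1.53 on the log2 scale (adjusted p = 0.00437, 0.017 and 0.0288). Without Fl/Fl day 2 replicate 1 the calls of Tapbp, Ghr, Glrx, Vwa5a and Frmd4b ended, and without replicate 2 those of Tapbp, S100a10, Vwa5a and Frmd4b. All of these calls but that of B2m ended when the fit held only the 7 arrays compared, with adjusted p of 0.0732 to 0.279. Other probe sets of Ghr, Vwa5a, Frmd4b and S100a10 did not pass, while those of B2m, Tapbp and Glrx did.

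Nrcam, a neural adhesion molecule, had reached its Fl/Fl day 4 level. It read 72, 139, 57, 64 and 47 in null day 4, against 14.5 ± 2.12 in Fl/Fl day 2 (SD, n = 2; log2 2.02, adjusted p = 0.00437) and 56 in each Fl/Fl day 4 array. Rbmx, an RNA-binding protein gene on the X chromosome, rose by log2 1.90 (adjusted p = 0.00075) in its brightest probe set, while its 3 other probe sets gave −0.47, −0.03 and 0.03. The mean of its probe sets did not pass. Pitpnc1, a lipid transfer protein gene, rose by log2 1.61 (adjusted p = 0.0404), with 576, 478 and 568 in replicates 3 to 5 and 196 and 240 in replicates 1 and 2, against 109 and 133 in Fl/Fl day 2. The Pitpnc1 call ended without either Fl/Fl day 2 array, with centred arrays and with the mean of its probe sets. Its other probe sets did not pass (log2 0.08 to 1.18). The calls of Nrcam, Rbmx and Pitpnc1 ended with only the 7 arrays in the fit (adjusted p = 0.107, 0.0732 and 0.279), and the other probe sets of Nrcam were near the floor and did not pass.

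**Figure D4:**
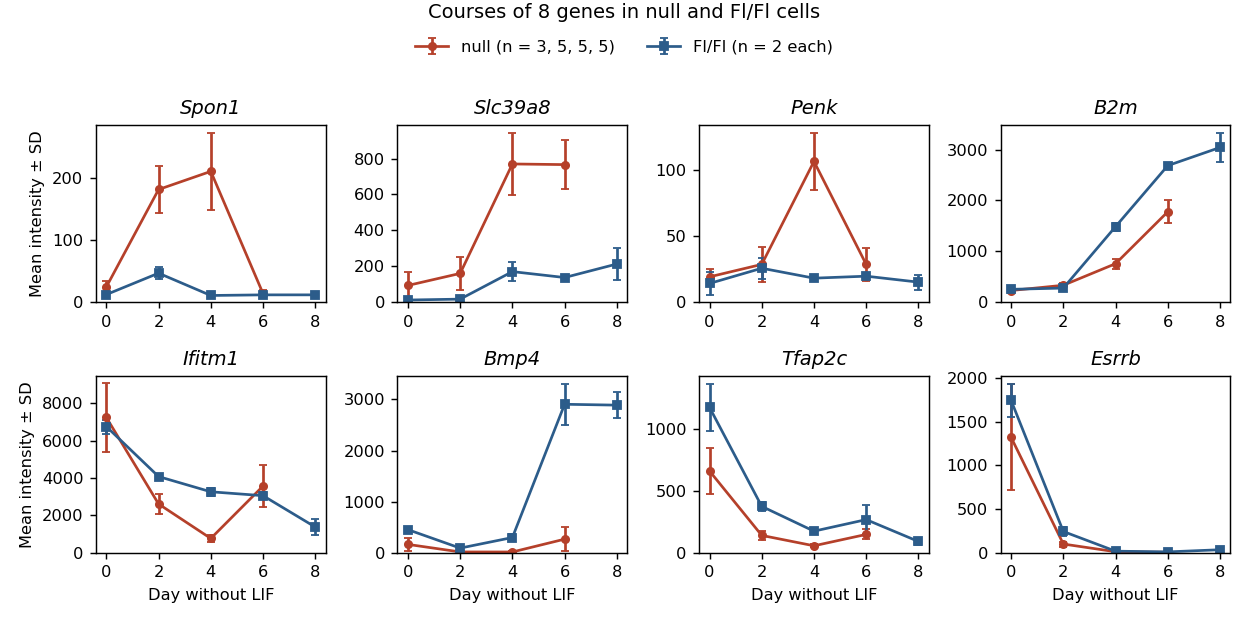
Mean intensity ± SD over the days without LIF of 8 genes picked after their values were seen, for null cells (n = 3 at day 0 and 5 at days 2, 4 and 6; day 8 is not drawn) and Fl/Fl cells (n = 2 each). At day 4 null cells lie above every Fl/Fl day for Slc39a8, Spon1 and Penk, below every Fl/Fl day for Ifitm1, Bmp4 and Tfap2c on the mean, and between Fl/Fl days 2 and 4 for B2m.

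Lists of genes by role were counted against Fl/Fl day 2 and Fl/Fl day 4. Over all genes tested, 0.346% were higher and 1.37% lower against day 2, and 4.18% higher and 7.43% lower against day 4, and the counts stand beside these shares. In 33 pluripotency genes 0 were higher and 7 lower, where 1.37% of all genes were lower (Esrrb, Dppa3, Fbxo15, Tfcp2l1, Nr0b1, Zfp42 and Trim28), with a median of log2 −0.67, against a median of 0 over all genes. Against Fl/Fl day 4, 9 of them were higher in null day 4 and 2 lower. Of 26 germ cell genes 0 were higher and 4 lower (Rhox5, Rhox6, Rhox9 and Stk31; 1.37% lower over all genes), with a median of −0.24, and 2 were higher and 1 lower against day 4. Their summed level was 663 to 1567 in null day 4 against 4299 to 4331 in Fl/Fl day 2. Rhox5 alone made up 2578 and 2650 of the sums in Fl/Fl day 2, so the sum mostly follows that gene. In 20 MHC class I and interferon genes 2 were higher (B2m and Tapbp; 0.346% higher over all genes) and 0 lower, with a median of 0.21, and 1 was higher and 6 lower against day 4. Their summed level was 3332 to 6187 in null day 4 against 2161 to 2444 in Fl/Fl day 2. Of 16 LIF and STAT3 genes 2 were lower (Ifitm1 and Tfcp2l1; 1.37% lower over all genes), with a median of −0.29, and 7 were lower against day 4. Of 32 imprinted genes 2 were lower (Cdkn1c and Peg12), with a median of −0.33, and 1 was higher and 7 lower against day 4. These lists were drawn up with earlier results of these data known.

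The core pluripotency factors Pou5f1, Nanog and Sox2 did not pass against Fl/Fl day 2. Pou5f1 read 8154, 7584, 6254, 6556 and 6950 in null day 4, against 7441 and 7848 in Fl/Fl day 2 (log2 −0.11, 95% interval −0.77 to 0.54, adjusted p = 1). Nanog gave −0.07 (interval −0.96 to 0.81) and Sox2 −0.20 (interval −0.80 to 0.40), while Sox2 was 2.20 above Fl/Fl day 4 on the log2 scale (adjusted p = 3.07e-05). Dnmt3b, the de novo DNA methyltransferase of the primed state, gave −0.11 (interval −0.86 to 0.63) and was 2.05 above Fl/Fl day 4 (adjusted p = 0.000555). All 4 differences from Fl/Fl day 2 changed sign under at least 1 alternative. The intervals give the span of differences these values allow, not the smallest difference the test could call. Missing the threshold is therefore no sign of equal levels.

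Primed epiblast genes were not called against Fl/Fl day 2 through the brightest probe set of each, though a second probe set of Fgf5 passed. In 18 such genes 0 passed in limma's fit (1.72% over all genes), with a median of 0.33. An unadjusted p under 0.05 was found for 3 of them, and for 2408 of all 18194 genes tested. Against Fl/Fl day 4, 9 were higher and 1 lower (4.18% and 7.43% over all genes). Otx2 read 2332, 2051, 1053, 1259 and 1286 in null day 4, against 550 and 716 in Fl/Fl day 2 (log2 1.27, interval 0.24 to 2.30, adjusted p = 0.227). Fgf5 read 824, 786, 807, 630 and 723 in null day 4, against 268 and 263 (log2 1.49, interval 0.41 to 2.56, adjusted p = 0.166). In both genes the groups did not overlap, yet the differences of these probe sets missed the threshold. The second Fgf5 probe set, with means of 207.2 in null day 4 and 26.5 in Fl/Fl day 2, was higher (log2 2.87, adjusted p = 0.00755 among probe sets). Over all genes, 14.7% did not overlap with Fl/Fl day 2, 3.84% above it and 10.9% below. Pou3f1 was at 0.27 (adjusted p = 0.911).

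Lineage genes that set null day 4 apart from Fl/Fl day 4 were mostly not called against Fl/Fl day 2. Of 34 primitive streak and mesoderm genes 3 were lower than Fl/Fl day 2 (Bmp4, Lefty1 and Lefty2), while 14 were lower and 1 higher against day 4; over all genes 1.37% were lower against day 2, and 7.43% lower and 4.18% higher against day 4. Mixl1, a homeobox gene of the streak, read 6, 27, 5, 5 and 6 in null day 4, against 5 and 5 in Fl/Fl day 2 and 1964 and 2110 in Fl/Fl day 4. Gata6, an endoderm factor, read 7 or 8 in null day 4, against 7 and 7, and 62 and 73 in Fl/Fl day 4. For both genes null day 4 was at the floor of the arrays, like Fl/Fl day 2, apart from Mixl1 in replicate 2. Of 23 endoderm genes and 23 neural genes 0 passed against day 2. An unadjusted p under 0.05 was found for 2 and 5 of them, and for 2408 of all 18194 genes tested. Against day 4, 6 endoderm genes were lower, and 1 neural gene was higher and 2 lower.

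Epithelial and contractile genes were also called mostly against Fl/Fl day 4. Of 19 keratin and junction genes 0 passed against Fl/Fl day 2 (6 unadjusted), and 13 were lower and 1 higher against day 4. Of 27 contractile genes 0 passed (3 unadjusted), and 17 were lower against day 4. Over all genes 1.72% passed against day 2 (2408 of 18194 unadjusted), and 7.43% were lower and 4.18% higher against day 4. Krt18, a keratin of simple epithelia, read 2440, 2731, 1248, 926 and 888 in null day 4, against 2716 and 2923 in Fl/Fl day 2 (log2 −0.94, adjusted p = 0.28) and 13232 and 14315 in Fl/Fl day 4. All null arrays but replicate 2 were below both Fl/Fl day 2 arrays. Anxa1, an annexin, read 78, 267, 269, 111 and 131 in null day 4, against 820 and 772 (log2 −2.35, adjusted p = 0.0529), and Col1a1, collagen I, read 35, 22, 26, 24 and 10, against 135 and 89 (log2 −2.13, adjusted p = 0.0564). Both just missed the threshold, with all 5 null arrays lower. Of 27 fibroblast and feeder cell markers, which include Col1a1, 0 passed (2 unadjusted), and their summed level was 4186 to 7942 in null day 4, around the 5375 to 5413 of Fl/Fl day 2. The part of such cells in the falls was not tested.

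Among chromatin genes, 28 members of PRC2 and PRC1 gave 0 higher and 1 lower (Pcgf5), with a median of −0.17, where 1.37% of all genes were lower and 0.346% higher. Of 33 Hox genes, classic Polycomb targets, 0 passed (2 unadjusted), with summed levels of 301 to 379 in null day 4 and 338 to 411 in Fl/Fl day 2, near the floor. In 22 BMP and Id genes 1 was lower (Bmp4), in 34 cell cycle genes 1 (Cdkn1c) and in 17 annexin and S100 genes 1 was higher (S100a10), so each of these 4 lists rests on a single call. Of 20 FGF and ERK feedback genes 0 passed (8 unadjusted), of 22 glycolysis and hypoxia genes 0 (1 unadjusted) and of 8 genes of the two-cell-like state 0 (0 unadjusted). Over all 18194 genes tested, 2408 had an unadjusted p under 0.05.

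**Figure D5:**
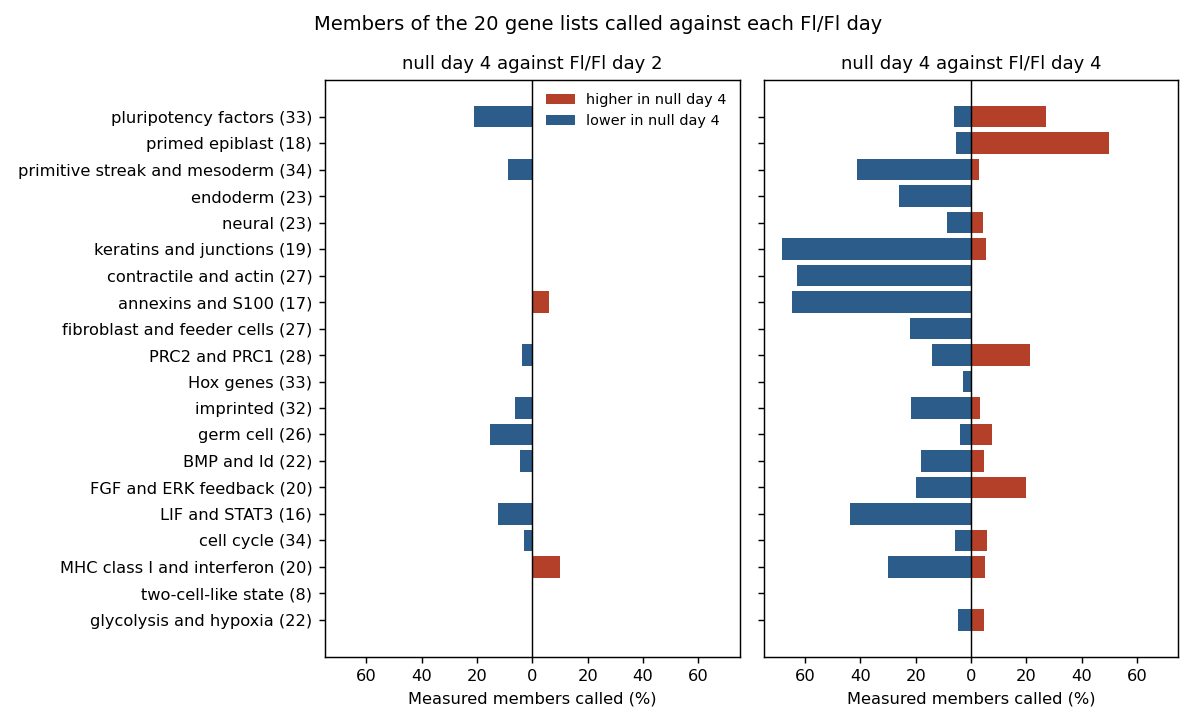
Percent of the measured members of 20 gene lists (number measured in parentheses) called higher (right of 0) or lower (left of 0) in null day 4, against Fl/Fl day 2 on the left and Fl/Fl day 4 on the right. Pluripotency factors have 7 of 33 members lower than Fl/Fl day 2, and contractile, keratin and annexin lists have called members mostly against Fl/Fl day 4.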

How the data were processed

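The values are the deposited probe set intensity of Affymetrix arrays, linear and in whole numbers; the sources used here do not give the authors' background correction, normalization or probe set summary. Per the labels' protocols, biotinylated cRNA was made from Trizol-extracted total RNA. Array means were 331.8 to 363.6. Of 45101 probe sets, 34958 named 1 gene (932 several, 9211 none), and the brightest probe set stood for each of 18194 genes. Symbols followed the RefSeq table of GRCm38.p6, which matched 34754 probe sets.

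Values were taken as log2(intensity + 4), so folds understate the change of dim genes. limma 3.58.1 (R 4.3.3) fitted 1 mean per genotype and day over all 30 arrays (20 residual degrees of freedom), with two-sided moderated tests adjusted by Benjamini-Hochberg at 0.05. For the test against Fl/Fl days 0, 2 and 4 together, the largest of the 3 p-values was taken where all 3 differences had the same sign. Intervals are 95% from the same fit. On simulated data with 100 genes changed at each size, the comparison with Fl/Fl day 2 recovered 73% at log2 1 and 92% at log2 2, with 14 false calls. The simulated scatter was normal and independent between arrays, and all changes were upward. Deviations shared by arrays, as in the 2 kinds of null array, were left out. These figures check the fit and do not give its recovery or false calls on the real arrays.

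Named genes were the 15 largest rises and falls with arrays that did not overlap, those passing the test against the 3 days, up to 4 per list with the smallest adjusted p, and 21 fixed genes, of which 20 were measured; unnamed gene models were skipped, and others were picked after their values were seen, as stated. Members, lists and tests were chosen with earlier results of these data known. Deviations of same-numbered arrays from their group means correlated at r of −0.11 and 0.05. With 2 Fl/Fl arrays the deviations mirror each other, so these values cannot settle whether the numbers pair arrays. The main fit took no pairing. Alternatives were the pseudocount, scaling, dim-gene filter, probe set rule, arrays fitted, spread model, replicate block, sets of null arrays by Eif2s3y, and each array left out.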

Additional observations from a re-analysis of the deposited data

Results flagged for a closer look

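In 14 of the named genes, 1 of the 5 null day 4 arrays stood apart from the other 4 on the linear scale, with a gap of more than 0.71 of the group's range. For normally distributed values about 1 in 20 groups shows such a gap by chance, and 116 genes were looked at. Linear intensities need not be normal, and the 5 arrays were of 2 kinds, so this rate need not hold here. The intensities are whole numbers, so among tied values the smallest step already gives the largest possible gap. Fgfr4, Sp110 and Map2 were such cases. Replicate 1 was the highest array for Dnmt3a (1326, others 374 to 633), Meg3 (1227, others 21 to 340), Krt7 (24, others 18 to 19) and Fgfr4 (10, others at 9). Replicate 2 was the highest for Mixl1 (27, others 5 to 6), Nrcam (139, others 47 to 72) and Tfap2c (78, others 49 to 53), and the lowest for Rhox5 (90, others 513 to 583) and Map2 (11, others at 12). Replicate 3 was the highest for Sp110 (6, others at 5). Replicate 4 was the highest for Rhox6 (13, others 9 to 10) and Rhox9 (17, others 12 to 13) and the lowest for Gtsf1l (8, others 11 to 12). Replicate 5 was the highest for Id4 (20, others 12 to 14). Without the array in question, Nrcam, Tfap2c, Rhox5, Rhox6, Rhox9 and Gtsf1l remained past the threshold against Fl/Fl day 2.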

How the results depend on the processing

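Few control arrays limit the comparison, and dim genes are limited by the floor of the arrays. Whichever Fl/Fl day 2 array was left out, most of the 313 genes called against that day lost the call. The totals of these fits are therefore made up largely of other genes, and each fit kept only 1 array of that group. The 313 genes against Fl/Fl day 2 became 139 (without Fl/Fl day 2 replicate 1) to 381 (without replicate 2) when 1 array was left out, 195 with centred arrays, 1995 with null arrays above 500 in Eif2s3y and 532 with the other null arrays. In the test against Fl/Fl days 0, 2 and 4 the 2 genes became 0 to 3 when 1 array was left out, 4 without the 40% dimmest genes, 1 with the replicate block, 1 over all 5 Fl/Fl days, and 368 and 22 with the 2 sets of null arrays. Only the arrays compared gave 1821 genes against Fl/Fl day 0, and centred arrays gave 11977 against day 6 (9688 higher, 2289 lower; 2041 and 2678 without centring). With the replicate block 264 genes passed against day 2 and 9 of the 43 named calls were lost (Bmp4, Cdkn1c, Greb1l, Lefty1, Lefty2, Manba, Pcgf5, Peg12 and Ramp3; adjusted p 0.0546 to 0.12). With only the 7 arrays compared 259 passed and 28 of the 43 named calls were lost (adjusted p 0.0509 to 0.396). With only the 11 arrays compared the test against the 3 days called 3 genes, 0 of them among the 2. Of 43 named genes called against Fl/Fl day 2, 9 (B2m, Esrrb, Gtsf1l, Ifitm1, Rhox6, Slc39a8, Spon1, Tfap2c and Tfpi) stayed past the threshold under every alternative and 34 lost the call under at least 1. Leaving out 1 of the 7 arrays ended 28 of the 43 calls, 26 of them without Fl/Fl day 2 replicate 1 and 21 without replicate 2. Of 73 named genes not called, 41 passed under at least 1 alternative. None of the 43 called differences changed sign; 10 not called did (Amn, Dnmt3b, Eif1a, Eif2s3y, Gata6, Hk2, Nanog, Pou3f1, Pou5f1 and Sox2). The causes were not tested.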

Other observations

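Beyond the lists, further germline genes were lower in null day 4 than in Fl/Fl day 2; they were picked after their values were seen. Rnf17, a tudor domain gene of spermatids, read 75, 67, 110, 53 and 98 in null day 4, against 324 and 362 in Fl/Fl day 2 (log2 −2.08, adjusted p = 0.00388 in limma's fit), and its call held when each of the 7 arrays was left out. Tdrd12, of the piRNA pathway, read 61, 14, 42, 15 and 35 in null day 4, against 125 and 209 (log2 −2.32, adjusted p = 0.00549). The meiosis genes Hsf2bp and Tex15 gave −2.03 and −1.98 (adjusted p = 0.0159 and 0.0203), and Dmrt1, a sex determination factor, −1.83 (adjusted p = 0.0142). Null day 4 was still above Fl/Fl day 4 in Tdrd12 (log2 1.42, adjusted p = 0.0305) and Dmrt1 (log2 1.48, adjusted p = 0.0105), so these 2 lay between the control days. Without Fl/Fl day 2 replicate 2 the calls of Tdrd12, Hsf2bp, Tex15 and Dmrt1 ended, and those of Hsf2bp and Tex15 also ended without replicate 1. All 4 ended with only the 7 arrays in the fit (adjusted p 0.111 to 0.267).

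Genes higher than Fl/Fl day 2 and lower than Fl/Fl day 4, also picked after their values were seen, included Igfbp3, Pmepa1, Wwtr1 and Nefl. Igfbp3, a binding protein of insulin-like growth factors, read 1430, 2422, 1884, 2001 and 1849 in null day 4, against 952 and 823 in Fl/Fl day 2 (log2 1.09, adjusted p = 0.00904) and 11357 and 12684 in Fl/Fl day 4 (log2 −2.66, adjusted p = 7.97e-08). Pmepa1, a TGF-beta target, read 230, 329, 273, 253 and 220 in null day 4, against 82 and 133 (log2 1.27, adjusted p = 0.00733) and 602 and 632 in Fl/Fl day 4. Wwtr1, a coactivator of the Hippo pathway, rose by log2 0.91 (adjusted p = 0.0327) and Nefl, a neurofilament, by 1.35 (adjusted p = 0.033). The Igfbp3 call ended without Fl/Fl day 2 replicate 2, the Pmepa1 call without replicate 1, and the Wwtr1 and Nefl calls without either. With only the 7 arrays in the fit the calls of Igfbp3, Pmepa1 and Wwtr1 ended (adjusted p = 0.0848 each).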
